A study of Mus musculus with 33 samples.

Results

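Immediate early genes and the AP-1 and Egr transcription factors among them were followed by their symbols in RNA-seq counts of sorted blood progenitors of old mice. The 10 genes were Fos, Fosb, Fosl2, Jun, Junb, Jund, Egr1, Ier2, Atf3 and Klf6, of 55376 genes counted in each of 33 libraries, and all 10 were found. Immediate early genes are transcribed within minutes of a growth factor, cytokine or stress signal, without new protein synthesis, when MAP kinases act on serum response factor with its ternary complex partners and on CREB. FOS proteins pair with JUN proteins through leucine zippers to form AP-1, which binds a short palindrome at enhancers, whereas EGR1 is a zinc finger factor that binds GC-rich promoters. In the stem cell compartment these genes are known for their link to quiescence and retention in the niche, and in sorted cells they are also known to respond to tissue dissociation and handling.

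The study asked how nicotinamide riboside (NR), a precursor of the coenzyme NAD+, changes hematopoiesis in old mice. The mice were C57BL/6 males of 24 to 29 months. O-WT mice were untreated, O-NR mice drank water with 12 mM NR for 4 to 6 weeks, and O-NR-RC mice were taken off NR for 2 months after that treatment, so every group is old and wild type and none is young. Hematopoietic stem cells (HSCs, Lin-c-Kit+Sca1+CD34-Flk2-CD150+) were sorted after c-Kit enrichment in cohort 1 (O-WT 2 libraries, O-NR 4, O-NR-RC 3). Cohort 2 holds 4 O-WT and 4 O-NR libraries each of HSCs, of CLPs (lymphoid progenitors) and of GMPs (progenitors of granulocytes and monocytes). One label field names the GMP libraries after another myeloid progenitor, but their titles say GMP. The labels do not say that each library is 1 mouse. In cohort 2 the deposited tables of the 3 cell types carry the same numbers in their names. No source used here says whether these numbers mark mice, so the cell types may not be independent of each other. Each group is a bulk sample of sorted cells, in which fewer cells of a type and less RNA per cell cannot be told apart.

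Depth ran from 8897256 to 23816042 assigned reads per library in cohort 1 and from 4792380 to 18213674 in cohort 2. Defining markers matched each label: the summed HSC markers were at 1268 to 1503 CPM (reads scaled to the library total) in HSCs of cohort 2 against 50.4 to 130 in CLPs and 28.2 to 52.8 in GMPs, while CLP markers led in CLPs and GMP markers in GMPs. Olfactory and vomeronasal receptor genes, which blood cells are not known to use, summed to 858 to 2376 CPM in GMPs, 1502 to 4671 in HSCs and 2115 to 8303 in CLPs of cohort 2, and to 4445 to 15260 in cohort 1. Scaled by exonic length, this sum gives the level a gene would have if it were counted no more than a receptor gene, called the receptor level here. In cohort 1, 4 libraries exceeded 10000 CPM, O-NR replicates 1 and 2 and O-NR-RC replicates 2 and 3, and they are treated as standing apart. The cohorts were also counted differently. Of 489 genes whose exons lie wholly under exons of the opposite strand, 485 had no read in any cohort 1 library against 29 in cohort 2, as when reads are counted without strand in the first cohort and with strand in the second. The exons of Jund share 877 of 1668 bases with the antisense gene Gm11175, Jun shares 232 of 3189 with Junos and Junb 173 of 2301 with Prdx2. Counting without strand leaves reads there unassigned, so their levels are compared only within a cohort.

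The members are spread over the mouse genome (GRCm38, mm10, Gencode M21 positions). Fos lies at chr12:85473890-85477273 on the plus strand with 4 exons, Fosb at chr7:19302696-19310051 on the minus strand, and Fosl2 at chr5:32135801-32157842 on the plus strand. Jun (chr4:95049034-95052222, minus) and Jund (chr8:70698949-70700616, plus) are single-exon genes, and Junb lies at chr8:84974484-84978718 on the minus strand. Ier2 lies at chr8:84661331-84662852 (minus, 1 exon), Atf3 at chr1:191170296-191218039 (minus) and Klf6 at chr13:5861482-5870394 (plus). Because members tended to be high or low in the same libraries of some groups, their promoters were read for shared short elements. The stretch read was the 250 bases before the RefSeq start, on both strands. The RefSeq table held a window for 8 of the 10 members, not for Egr1 or Ier2. The Fos window held TGACGT, the core of the CREB element TGACGTCA, 66 bases before the start and TATAAA 33 bases before it. The Jun and Klf6 windows held TGACATCA, a variant AP-1 site, 45 and 119 bases before their starts, and Atf3 held TGACGT on the other strand at 8 bases. The share of 32851 promoters with each element was 6.47% for TGACGT, 12.4% for TATAAA and 2.93% for TGACATCA. The whole CREB element (1.55% of promoters), the consensus AP-1 site TGANTCA (6.75%) and the CArG box of serum response factor (1.47%) were in none of the 8 windows, which says only that these letters are absent there. The stretches that hold the elements are given 5′ to 3′ from RefSeq (GRCm38.p6), with the elements in capitals: Fos chr12:85473810-85473889 (plus), Jun chr4:95052223-95052302 (minus) and Klf6 chr13:5861349-5861428 (plus).
Fos: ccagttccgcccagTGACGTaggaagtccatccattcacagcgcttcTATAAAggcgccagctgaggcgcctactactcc
Jun: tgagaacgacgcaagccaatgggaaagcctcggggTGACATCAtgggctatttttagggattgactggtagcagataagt
Klf6: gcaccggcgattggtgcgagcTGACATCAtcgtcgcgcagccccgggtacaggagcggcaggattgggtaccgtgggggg

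Per kilobase of exon, the order of the members differed between cell types of cohort 2 (mean ± SD over 8 libraries). In HSCs Jund led at 35.2 ± 5.49 CPM per kb, then Ier2 at 22.7 ± 4.36, Jun at 14.4 ± 3.90, Junb at 13.8 ± 3.20, Egr1 at 10.3 ± 2.46 and Klf6 at 7.94 ± 1.72. Fosl2 (5.17 ± 2.70), Fos (4.35 ± 1.72), Atf3 (1.99 ± 0.979) and Fosb (1.504 ± 0.454) were at the low end. Jund and Ier2, and by a narrow margin Ier2 and Jun, were apart by more than 1 SD on each side, and the steps between neighbours below Jun lay within the spread. In CLPs Jund (14.5 ± 4.00), Ier2 (10.8 ± 2.19) and Jun (10.7 ± 2.64) overlapped at the top, apart from Junb (4.95 ± 1.27) and those below it, with Fosl2 (1.53 ± 0.4662) and Fosb (1.19 ± 0.317) last. In GMPs Ier2 was first at 15.5 ± 1.46, apart from Jund at 8.28 ± 2.18, Junb (5.73 ± 0.885) was apart from Fosl2 (3.31 ± 0.846), and Fosb (0.654 ± 0.327) and Egr1 (0.535 ± 0.263) overlapped in last place. Against the receptor level, Jund stood 8.22 to 150 times, Ier2 6.34 to 115 times and Junb 3.53 to 66.5 times higher in cohort 2, whereas the lowest ratios were 0.575 for Egr1, 1.13 for Fosb, 1.51 for Fosl2, 2.12 for Fos and 2.90 for Atf3, so low values of these 5 genes are partly of the size of receptor counts. Over the 24 libraries Fosb had the lowest median ratio, 2.13.

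**Figure D1:**
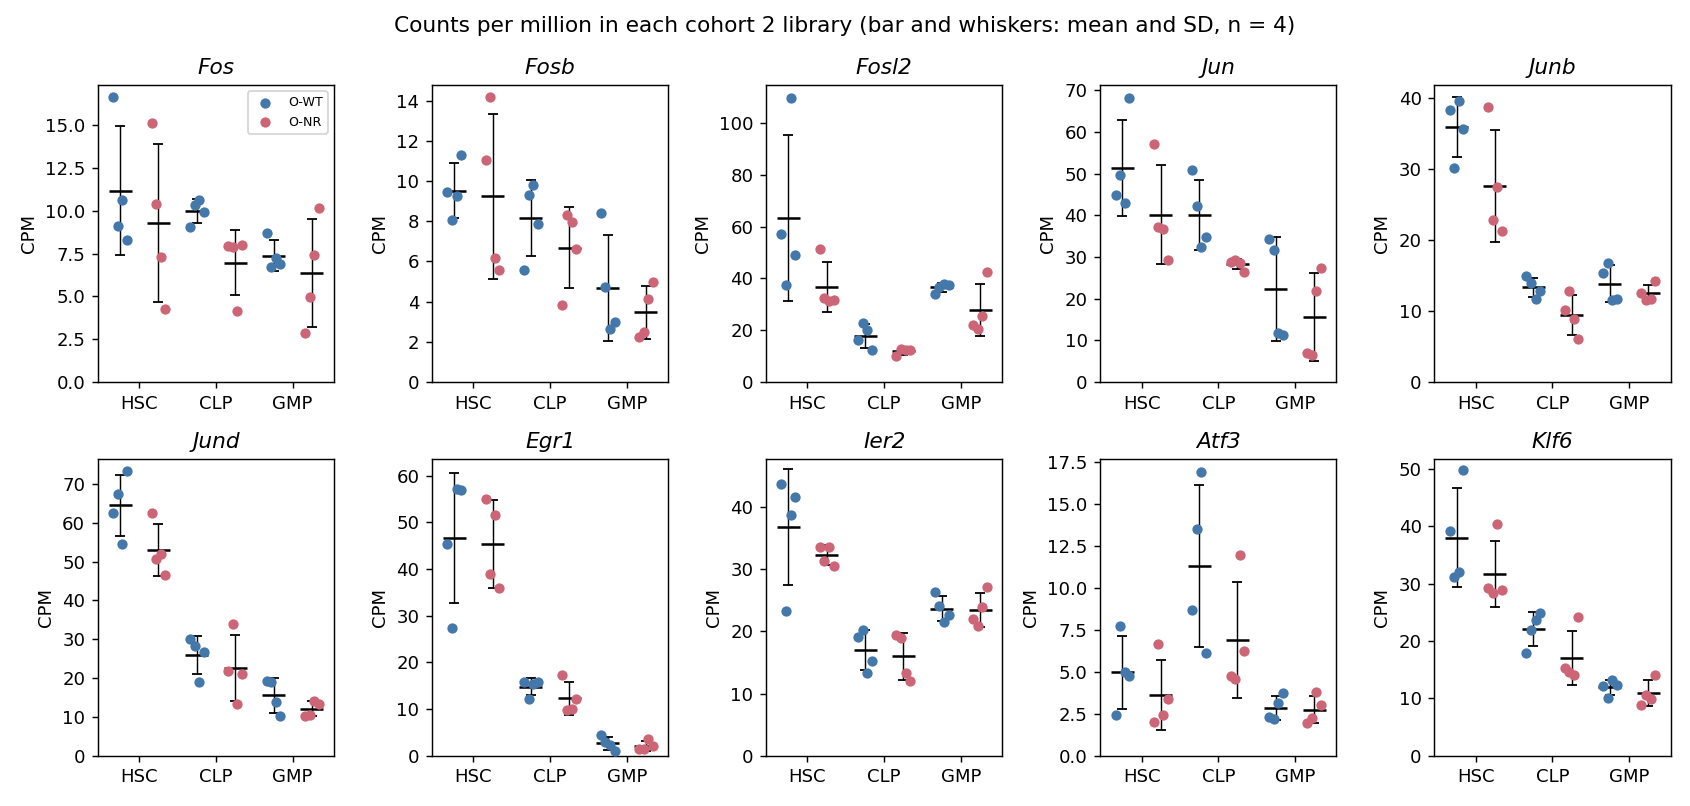
CPM of each of the 10 genes in the 24 libraries of cohort 2 (one point per library, with mean and SD), by cell type and treatment. Egr1 spans 27.4 to 57.1 CPM in HSCs of cohort 2 and 1.02 to 4.43 CPM in GMPs, while Fos stays between 2.88 and 16.7 CPM in every group.

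The cell types were compared within O-WT and within O-NR mice of cohort 2 by edgeR quasi-likelihood tests over all genes, with an adjusted p under 0.05 as the threshold, and log2 fold changes are TMM scaled while levels are plain CPM. The first question was which members differ between HSCs and the progenitors they give rise to. In O-WT mice 6 members were lower in CLPs than in HSCs and 1 was higher, against 19.9% of 20044 genes lower and 10.4% higher. In O-NR mice the same 7 genes were called, 6 lower and 1 higher, against 22.6% lower and 18.3% higher of 18080 genes. In GMPs 5 members were lower than in HSCs in O-WT mice and 6 in O-NR mice, and none was higher, against 21.5% and 22% of genes lower and 22.6% and 24.4% higher. Between GMPs and CLPs of O-WT mice 3 members were higher and 2 lower (background 28.6% higher, 32.2% lower), and in O-NR mice 3 were higher and 3 lower (26.1% and 23.9%). The members' median log2 fold change was -1.12 for CLPs against HSCs in O-WT mice, with 0.08 for all genes, and -0.75 for GMPs against HSCs, with -0.31 for all genes. Groups without overlap in CPM, named below, were common among all genes. Every CLP library was below every HSC library for 16.8% of genes in O-WT and 21.5% in O-NR mice. Every GMP library was below every HSC library for 30.9% and 32.4%, and below every CLP library for 36.2% and 29.2%. Every GMP library was above every CLP library for 13.9% and 16.1%. Scaling by library totals lowers all GMP values against HSCs by a median of 0.35 in O-WT and 0.26 in O-NR mice, and against CLPs by 0.51 and 0.27, and a few calls below turn on this choice.

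Of the FOS family, Fosl2 set HSCs apart from CLPs. Fosl2 encodes FRA2, a FOS-related partner of JUN that lacks a strong activation domain. In HSCs it was at 57.2, 37.3, 110 and 49.2 CPM in O-WT mice and at 51.3, 32.5, 31.3 and 31.6 CPM in O-NR mice. In CLPs it was at 16.3, 22.7, 20.2 and 12.2 CPM and at 9.86, 12.6, 12.4 and 12.3 CPM. Every CLP library was below every HSC library of its treatment, as were those of 16.8% of all genes in O-WT and 21.5% in O-NR mice. The log2 fold change was -2.01 (SE 0.24, adjusted p = 9.54e-08) in O-WT and -1.65 (SE 0.22, adjusted p = 7.53e-07) in O-NR mice. In GMPs Fosl2 was at 34.0, 36.6, 37.8 and 37.6 CPM in O-WT mice and at 22.1, 20.6, 25.5 and 42.4 CPM in O-NR mice, above every CLP library of the same treatment. It was 1.56 higher (SE 0.24, adjusted p = 5.98e-06) and 1.49 higher (SE 0.22, adjusted p = 4.96e-06) in GMPs than in CLPs on the log2 scale. GMPs and HSCs overlapped, with -0.44 (95% interval -0.90 to 0.01, adjusted p = 0.106) in O-WT mice, which became -0.80 (adjusted p = 0.0143) when libraries were scaled by totals. CLPs stood 1.51 to 3.69 times above the receptor level for Fosl2, so much of their value is of that size.

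Fos, the founding AP-1 member, was low in all 3 cell types. It was at 16.7, 9.13, 10.7 and 8.29 CPM in O-WT HSCs, at 9.05, 10.3, 10.6 and 9.95 CPM in CLPs and at 8.73, 6.70, 7.22 and 6.89 CPM in GMPs. HSCs overlapped with both progenitors, while all O-WT GMPs were below all O-WT CLPs in CPM, as in 36.2% of all genes. In O-NR mice GMPs at 2.88 to 10.2 CPM overlapped with CLPs at 4.12 to 7.99 CPM. No difference passed: CLPs against HSCs gave -0.34 (-0.88 to 0.19), GMPs against HSCs -0.28 (-0.81 to 0.25) and GMPs against CLPs 0.06 (-0.48 to 0.60), with 95% intervals that leave room for a change of more than 1.5-fold. In O-NR mice the 3 values were -0.40, -0.30 and 0.11. Fosb, a close paralogue of Fos that also yields the stable isoform known as delta-FosB, was at 8.06 to 11.3 CPM in O-WT HSCs, 5.60 to 9.81 CPM in CLPs and 2.65 to 8.41 CPM in GMPs. In O-NR mice it was at 5.58 to 14.2 CPM in HSCs and at 2.25 to 5.001 CPM in GMPs, with no overlap, and was 1.13 lower in GMPs on the log2 scale (fold change -1.13, SE 0.33, adjusted p = 0.0057). In O-WT mice the same comparison gave -0.67 (-1.33 to -0.02, adjusted p = 0.0886) and the difference of this contrast between treatments was not called (-0.49, -1.39 to 0.42).

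The JUN family showed a different order. Junb, which can oppose JUN in proliferation, was at 38.3, 30.1, 39.7 and 35.7 CPM in O-WT HSCs, at 14.9, 13.9, 11.7 and 12.8 CPM in CLPs and at 15.4, 16.8, 11.6 and 11.7 CPM in GMPs. HSCs were above both progenitors in every library. The log2 fold change was -1.57 (SE 0.21, adjusted p = 5.8e-07) for CLPs and -1.02 (SE 0.20, adjusted p = 0.000113) for GMPs, and -1.56 and -0.90 in O-NR mice. GMPs and CLPs overlapped for Junb. Its call between them (0.55, adjusted p = 0.0254 in O-WT; 0.66, adjusted p = 0.0219 in O-NR) was lost under totals (0.06 and 0.39), without CLP replicate 2, CLP replicate 3 or GMP replicate 2 in O-WT mice (0.50, 0.43 and 0.47) and without CLP replicate 4 in O-NR mice (0.49), and in O-WT mice its sign turned with TMM factors from genes over 50 CPM and with the receptor level as a covariate.

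Jund, the most evenly expressed JUN protein, had the next largest difference of GMPs from HSCs after Egr1. It was at 62.5, 67.3, 54.6 and 73.3 CPM in O-WT HSCs, at 30.01, 28.3, 19.0 and 26.6 CPM in CLPs and at 19.3, 18.9, 13.7 and 10.1 CPM in GMPs. The lowest HSC library was above the highest library of the other types. It was 1.43 lower in CLPs on the log2 scale (fold change -1.43, SE 0.22, adjusted p = 7.56e-06) and 1.69 lower in GMPs (-1.69, SE 0.22, adjusted p = 3.66e-07). In O-NR mice HSCs held 46.6 to 62.4 CPM, CLPs 13.2 to 33.8 and GMPs 10.3 to 14.1, with fold changes of -1.23 and -1.88. GMPs were called lower than CLPs in O-NR mice (-0.66, adjusted p = 0.013), where leaving out CLP replicate 2 gave -0.32 (adjusted p = 0.175) and leaving out GMP replicate 1 or 2 gave -0.57 for each (adjusted p = 0.057 and 0.0555).

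Jun, the main transactivating partner of FOS, was not called between HSCs and CLPs. It was at 44.8, 49.8, 42.9 and 68.2 CPM in O-WT HSCs, at 51.0, 42.4, 32.3 and 34.9 CPM in CLPs and at 34.4, 31.6, 11.8 and 11.3 CPM in GMPs. GMPs formed a high and a low pair, all below the HSC libraries. The fold change for CLPs was -0.50 (95% interval -1.09 to 0.09) and for GMPs -0.83 (SE 0.29, adjusted p = 0.0202). The GMP call rested on single libraries: without HSC replicate 4, GMP replicate 3 or GMP replicate 4 it was -0.57 (adjusted p = 0.12), -0.56 (0.135) and -0.53 (0.101), and DESeq2 gave an adjusted p of 0.304. In O-NR mice Jun was at 29.4 to 57.2 CPM in HSCs and at 6.90, 6.37, 21.8 and 27.4 CPM in GMPs, with -1.14 (SE 0.30, adjusted p = 0.00276). GMPs against CLPs gave -0.61 (adjusted p = 0.0954) in O-NR mice.

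Egr1 (chr18:34859823-34864984, plus strand), an early growth response factor linked to HSC quiescence, was the member with the lowest value in GMPs against HSCs and against CLPs. It was at 45.4, 27.4, 57.1 and 56.9 CPM in O-WT HSCs and at 55.0, 38.9, 51.6 and 36.0 CPM in O-NR HSCs. In CLPs it was at 15.8, 12.2, 15.4 and 15.8 CPM and at 17.3, 9.84, 9.95 and 12.2 CPM. In GMPs it was at 4.43, 2.85, 2.39 and 1.02 CPM and at 1.41, 1.41, 3.60 and 2.08 CPM, from 12 to 69 reads per library. The 3 cell types did not overlap in either treatment. GMP values were 0.575 to 4.45 times the receptor level, so a residual level in GMPs was not separated from it in every library. The log2 fold change was -1.81 (SE 0.28, adjusted p = 6.24e-06) for CLPs and -3.75 (SE 0.31, adjusted p = 6.26e-11) for GMPs against HSCs in O-WT mice, and -1.91 (adjusted p = 1.65e-07) and -4.20 (adjusted p = 8.86e-13) in O-NR mice. GMPs were also below CLPs, by -1.94 and -2.28.

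Ier2, a small nuclear immediate early protein, was lowest in CLPs. It was at 43.7, 23.2, 38.7 and 41.6 CPM in O-WT HSCs, at 19.2, 20.2, 13.4 and 15.2 CPM in CLPs and at 26.3, 24.05, 21.5 and 22.7 CPM in GMPs. Every O-WT CLP library was below every O-WT HSC and GMP library. CLPs differed from HSCs by -1.28 (SE 0.22, adjusted p = 4.16e-05) and GMPs from CLPs by 0.96 (SE 0.22, adjusted p = 0.000928), and by -1.02 and 0.81 in O-NR mice. GMPs against HSCs gave -0.32 (-0.76 to 0.12, adjusted p = 0.222), and -0.64 (adjusted p = 0.0069) under library totals. With the receptor level as a covariate the difference of GMPs from CLPs was 0.21 (adjusted p = 0.584) in O-WT mice.

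Atf3, a stress-induced bZIP repressor that can join AP-1, was the only member called higher in CLPs than in HSCs. It was at 2.40, 7.71, 4.96 and 4.77 CPM in O-WT HSCs, at 8.69, 13.5, 16.9 and 6.14 CPM in CLPs and at 2.31, 2.20, 3.11 and 3.74 CPM in GMPs. HSCs and CLPs overlapped and all GMPs were below all CLPs. CLPs were 1.03 higher than HSCs (SE 0.32, adjusted p = 0.0147) in O-WT mice, 0.81 (adjusted p = 0.0691) without HSC replicate 1 and 0.77, not called, with edgeR's own filter. In O-NR mice the value was 0.96 (adjusted p = 0.0435), and this call was kept with RLE scaling and DESeq2 but lost in the 7 other settings, with 0.39 under the receptor covariate, and in 7 fits that left out 1 library, with 0.63 (adjusted p = 0.176) without CLP replicate 3. GMPs were lower than CLPs by -1.44 (adjusted p = 0.00069) in O-WT and -1.05 (adjusted p = 0.0241) in O-NR mice, which became -0.62 and 0.03 with the receptor level as a covariate. The O-NR call was also lost without CLP replicate 3 (-0.66), GMP replicate 1 (-0.90) or GMP replicate 2 (-0.93). Receptor genes also reached their highest cohort 2 levels in CLPs, and their part in the result was not tested beyond this covariate.

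Klf6, a zinc finger factor of the Krüppel-like family induced in the same way, was at 39.2, 31.2, 32.1 and 49.7 CPM in O-WT HSCs, at 17.98, 21.97, 23.6 and 24.8 CPM in CLPs and at 12.1, 9.99, 13.2 and 12.2 CPM in GMPs. The 3 cell types did not overlap in these mice. It was 0.95 lower in CLPs (log2 fold change -0.95, SE 0.20, adjusted p = 0.000344) and 1.36 lower in GMPs (-1.36, SE 0.20, adjusted p = 1.83e-06) than in HSCs, with -0.92 and -1.31 in O-NR mice. GMPs against CLPs gave -0.40 (adjusted p = 0.079), and -0.89 (adjusted p = 0.00049) under library totals.

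**Figure D2:**
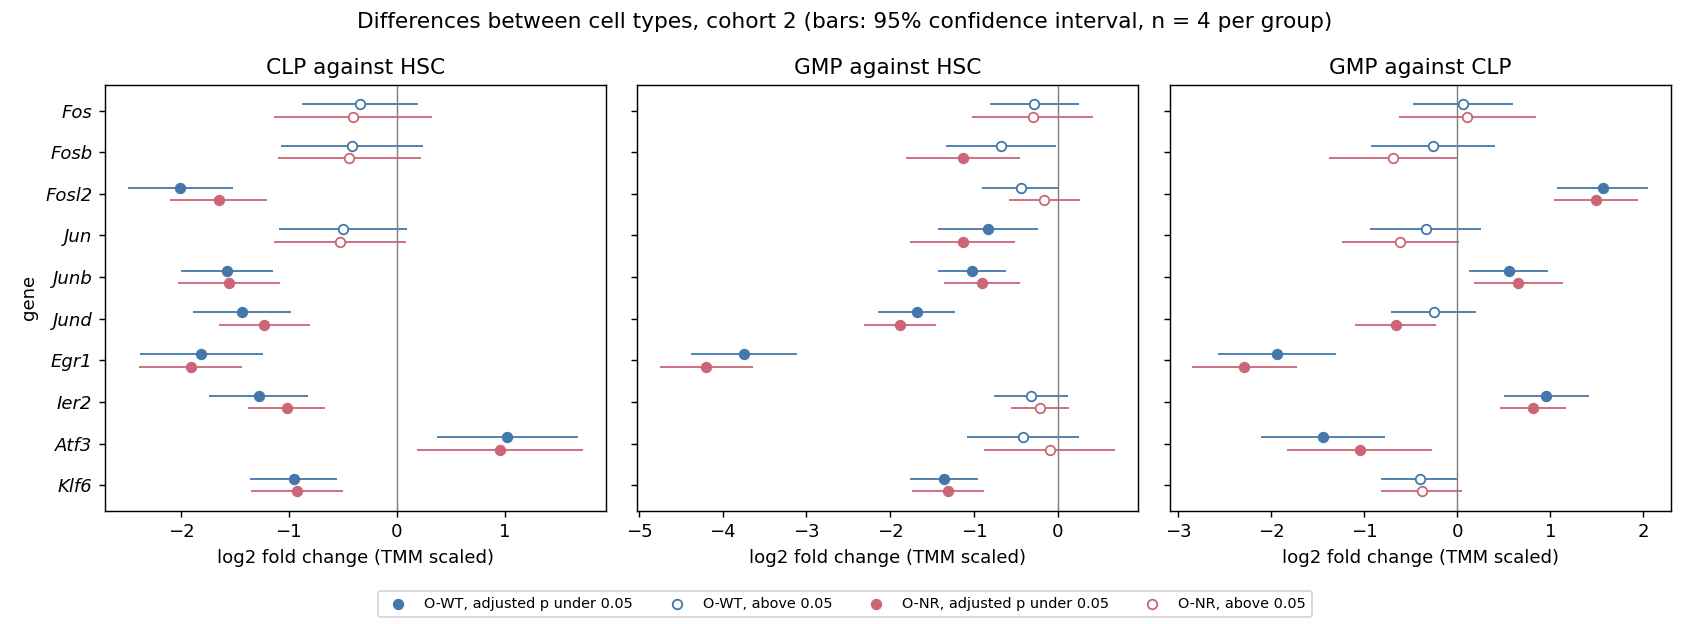
Log2 fold changes (TMM scaled) of the 10 genes between cell types of cohort 2, with 95% confidence intervals, in O-WT and O-NR mice (4 libraries per group). Filled points passed an adjusted p of 0.05. Egr1 has the lowest values in both comparisons of GMPs, and the calls for Junb between GMPs and CLPs change with the scaling.

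Related genes were read from lists of 12 other AP-1 bZIP genes, 32 other immediate early genes, 17 feedback inhibitors of this response, 24 upstream kinases and factors and 10 heat shock genes. The counts are read against the shares of all genes called in O-WT mice, given above: 19.9% lower and 10.4% higher in CLPs, and 21.5% lower and 22.6% higher in GMPs. Of 17 feedback inhibitors tested, 14 were lower and 0 higher in GMPs than in HSCs of O-WT mice (median -1.34), and 10 were lower and 4 higher in CLPs (median -0.65). Dusp4, a phosphatase of nuclear MAP kinases, was at 1.118 ± 0.107 CPM in GMPs and 3.95 ± 1.799 CPM in CLPs against 33.9 ± 7.54 CPM in HSCs, with log2 fold changes of -4.58 and -3.36. Dusp6 and Dusp5, phosphatases of ERK, went the other way in CLPs (1.71 and 1.99). Among 28 other immediate early genes tested, 13 were lower and 8 higher in GMPs than in HSCs, and 10 lower and 6 higher in CLPs. Plk2 (-4.27 and -2.94), a polo-like kinase, and Rgs1 (-3.59 and -2.33), a brake on G protein signalling, were lower in GMPs and CLPs. Rgs2, a relative of Rgs1, was higher in GMPs (2.13), and Cebpb, a myeloid bZIP factor, was lower in CLPs (-2.68) and higher in GMPs than in CLPs (3.66). Of 12 other AP-1 genes, 4 were lower in CLPs, led by Mafg (-1.42), Batf (-1.95) and Batf2 (-2.23), and 3 were lower and 3 higher in GMPs, with Maf at -2.60 and Maff at -2.99. Of 24 upstream genes 6 were lower and 4 higher in CLPs and 4 lower and 10 higher in GMPs, where Mrtfb, a coactivator of serum response factor, was at -1.41. Of 8 heat shock genes tested none was called in CLPs and 5 were higher in GMPs, with Hspa8 at 1.29. In O-NR mice the feedback list again had 15 lower and 0 higher in GMPs, and 8 lower and 4 higher in CLPs.

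The next question was whether NR changed the members within a cell type. In HSCs of cohort 2 only Fosl2 passed an unadjusted p under 0.01, which 0.777% of 17364 genes did, and no gene had an adjusted p under 0.05. Its 4 O-WT and 4 O-NR values, given above, overlapped: O-NR replicate 1 at 51.3 CPM was above O-WT replicates 2 and 4. The mean was 36.7 ± 9.75 CPM in O-NR against 63.4 ± 32.0 in O-WT mice, a log2 fold change of -0.74 (SE 0.25, 95% interval -1.27 to -0.21, edgeR unadjusted p = 0.00945, adjusted p = 0.995). Without O-WT replicate 3, the library at 110 CPM, it was -0.38 (unadjusted p = 0.0643), and without O-NR replicates 2, 3 or 4 it was -0.68, -0.69 and -0.68 (unadjusted p = 0.0203, 0.0219 and 0.0287). The summed B and plasma cell markers differed between the same libraries, at 98.3, 56.3, 145 and 462 CPM in O-WT against 44.0, 26.4, 27.3 and 23.8 CPM in O-NR mice, with Ighm alone past the threshold (-4.86) and all 4 markers that were tested below 0. Their part in the Fosl2 result was not tested.

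No other member passed in HSCs. Junb was at 38.8, 22.8, 27.5 and 21.3 CPM in O-NR against 30.1 to 39.7 in O-WT mice (-0.33, 95% interval -0.70 to 0.03, unadjusted p = 0.0706). Jund gave -0.24 (-0.50 to 0.03, unadjusted p = 0.075), Jun -0.32 (-0.71 to 0.07, unadjusted p = 0.105) and Egr1 0.00 (-0.43 to 0.44). Of the 10 log2 fold changes 9 were below 0 and the median was -0.24, with 51.2% of all genes below 0 and a median of -0.01. Counted with RLE, upper quartile or library total scaling all 10 were below 0, since Egr1 lies at 0.

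In CLPs no member passed, where 0.412% of 19909 genes did, 9 of 10 values were below 0 and the median was -0.31 (all genes 0.00, 50.7% below 0). Jun was at 28.9, 29.2, 28.6 and 26.4 CPM in O-NR CLPs, all below the 32.3 to 51.0 CPM of O-WT CLPs, and Fos at 7.93, 7.87, 4.12 and 7.99 CPM was all below the 9.05 to 10.6 CPM of O-WT. Over all genes 2.29% had every O-NR library below every O-WT library. Jun gave -0.40 (-0.80 to 0.00, unadjusted p = 0.0524), and -0.51 (unadjusted p = 0.005) under library totals, which shift all genes by -0.14 here. Fos gave -0.37 (-1.04 to 0.29, unadjusted p = 0.259). Car1, an erythroid marker, was higher in O-NR CLPs (1.65). The summed erythroid markers overlapped, at 7.70 to 40.9 CPM in O-NR against 8.71 to 19.2 CPM in O-WT CLPs. Mature neutrophil markers summed to 11.5 to 139 CPM against 50.4 to 164 in O-WT, also with overlap. Their part in the result was not tested.

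In GMPs 9 members could be tested, Egr1 being under the filter of 3 CPM. None passed (0.986% of 13486 genes did), all 9 were below 0, and the median was -0.25 with 0.00 for all genes. Fosl2 was at 22.1, 20.6, 25.5 and 42.4 CPM in O-NR against 34.0 to 37.8 CPM in O-WT mice, so 3 O-NR libraries were below and 1 above the O-WT range (-0.43, -0.81 to -0.06, unadjusted p = 0.0253). Jund gave -0.41 (-0.83 to 0.01, unadjusted p = 0.0576) and Jun -0.58 (-1.53 to 0.37, unadjusted p = 0.213). Since the tables of the 3 cell types share their numbers, the values below 0 in HSCs, CLPs and GMPs may not be 3 independent observations. Members are not independent of each other either, as 27 of 28 pairs of them had a positive r within groups, given below. No member was called for a difference of the NR effect between cell types. This interaction test called 0.403% (CLPs against HSCs), 0.146% (GMPs against HSCs) and 0.403% (GMPs against CLPs) of 22573 genes. For Fosl2 the difference between CLPs and HSCs was 0.30 (95% interval -0.41 to 1.00) and for Jun between GMPs and HSCs -0.35 (-1.25 to 0.55).

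**Figure D3:**
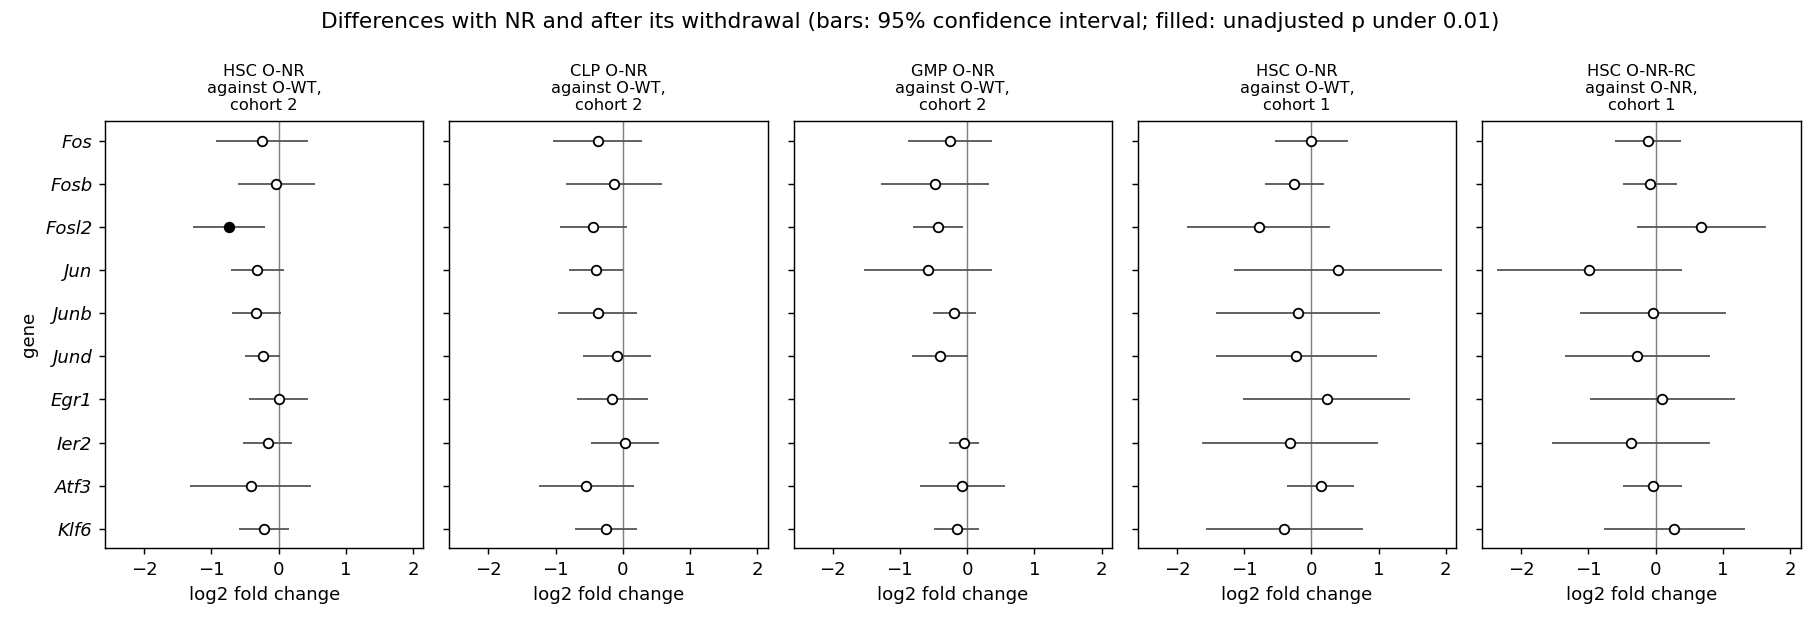
Log2 fold changes (TMM scaled) of O-NR against O-WT with 95% confidence intervals for the members in HSCs, CLPs and GMPs of cohort 2 and HSCs of cohort 1. The last panel shows O-NR-RC against O-NR in HSCs of cohort 1. Filled points passed an unadjusted p of 0.01, which is Fosl2 in HSCs of cohort 2 alone. Most points of cohort 2 lie left of 0 with intervals that cross it, and the intervals of cohort 1 are wider.

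Apart from the heat shock genes, the lists gave few calls with NR. In HSCs 0 of 11 other AP-1 genes, 0 of 28 other immediate early genes and 0 of 24 upstream genes passed, and of 17 feedback inhibitors 1 was higher (Spred2, an inhibitor of the RAS pathway, 0.42, 50.3 ± 0.956 against 38.6 ± 3.25 CPM). Heat shock genes were lower in 3 of 7 tested in HSCs, 1 of 7 in CLPs and 4 of 7 in GMPs. At the same threshold, an unadjusted p under 0.01, edgeR called 0.777%, 0.412% and 0.986% of all genes, in either direction. Hsph1, a co-chaperone of the HSP110 family, was at 56.3 ± 10.02 against 107 ± 41.5 CPM in HSCs (-0.88), at 69.0 ± 12.3 against 155 ± 56.3 CPM in CLPs (-1.04) and at 89.9 ± 15.01 against 152 ± 51.5 CPM in GMPs (-0.77). Dnaja1, another co-chaperone, was at -0.60 in HSCs and -0.45 in GMPs, and Hspa8, the constitutive HSP70, at -0.45 and -0.51. No adjusted p of these genes was under 0.05. Summed, the heat shock genes overlapped between treatments in each cell type, with 3234 to 5154 CPM in O-WT and 2849 to 3701 CPM in O-NR HSCs. O-WT replicate 4 was highest in HSCs and GMPs, and O-WT replicate 2 in CLPs. In cohort 1 the sums were 3089 and 3420 CPM in O-WT and 2233, 2422, 3695 and 3842 CPM in O-NR HSCs. As the tables share their numbers, the 3 cell types may not be independent here. In GMPs Myc was lower (-0.26), the 1 call among 20 other immediate early genes tested.

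Cohort 1 asked whether HSCs return to the untreated state after NR is withdrawn. No member was called in any of its 3 comparisons, and the background was as low: 0.048% of 33350 genes for O-NR against O-WT, 0.036% for O-NR-RC against O-NR and 0.078% for O-NR-RC against O-WT. Fosl2 was at 90.7 and 43.8 CPM in untreated HSCs, at 45.8, 48.0, 40.3 and 39.6 CPM with NR and at 86.3, 56.2 and 50.02 CPM after withdrawal. All 3 withdrawn libraries were above all O-NR libraries, as in 0.663% of all genes, and 1 of the O-WT libraries was within the O-NR range. O-NR against O-WT gave -0.78 (SE 0.49, 95% interval -1.84 to 0.28, unadjusted p = 0.137), O-NR-RC against O-NR 0.68 (SE 0.44, -0.27 to 1.64, unadjusted p = 0.147) and O-NR-RC against O-WT -0.10 (-1.25 to 1.05). Both first comparisons share the O-NR libraries. In the fit over both cohorts with a cohort term Fosl2 was the 1 member called for NR (-0.72, SE 0.21, -1.15 to -0.28, unadjusted p = 0.00247, adjusted p = 1), among 0.103% of 23413 genes. This holds the cohort 2 values again, and was -0.53 (unadjusted p = 0.0277) without O-WT replicate 1 of cohort 1 and -0.53 (unadjusted p = 0.0121) without O-WT replicate 3 of cohort 2. No member was called for a difference of the NR effect between cohorts, where 0.137% of genes were. For Fosl2 the difference was 0.00 (-0.94 to 0.95). The largest were 0.68 for Jun and 0.60 for Atf3, and 3 of 10 were below 0. With 2 O-WT libraries in cohort 1 such differences could be missed.

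Several other members differed between libraries of the same group in cohort 1. Ier2 was at 29.5 and 30.2 CPM in untreated HSCs, at 14.06, 14.09, 38.3 and 28.9 CPM with NR and at 26.2, 14.5 and 14.05 CPM after withdrawal. The 4 values under 15 CPM are those of the 4 libraries with over 10000 CPM of receptor genes. Jun was at 35.2, 25.9, 114 and 76.7 CPM in O-NR and 41.1, 29.3 and 29.6 CPM in O-NR-RC HSCs, and Junb at 16.5, 17.8, 36.4 and 29.4 and at 33.8, 17.9 and 19.3 CPM. Egr1 split in the same way in O-NR mice (22.1, 20.4, 49.5 and 37.0 CPM). In those 4 libraries Ier2 stood 3.76 to 3.89 times, Junb 3.23 to 3.73 times, Egr1 1.91 to 2.74 times, Fosl2 1.97 to 2.28 times and Fosb 0.991 to 1.08 times the receptor level, against 13.1 to 23.5, 9.11 to 21.4, 3.76 to 13.9, 2.99 to 12.03 and 1.41 to 1.98 times in the other 5. Atf3 and Fosb went the other way in CPM, with Atf3 at 14.5, 13.4, 16.3 and 12.4 CPM in the 4 libraries and at 5.63 to 9.47 CPM in the other 5, and Fosb at 15.4 to 16.4 CPM against 7.22 to 13.99 CPM. Fos overlapped between them, at 9.63 to 13.4 CPM against 5.29 to 10.8 CPM.

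**Figure D4:**
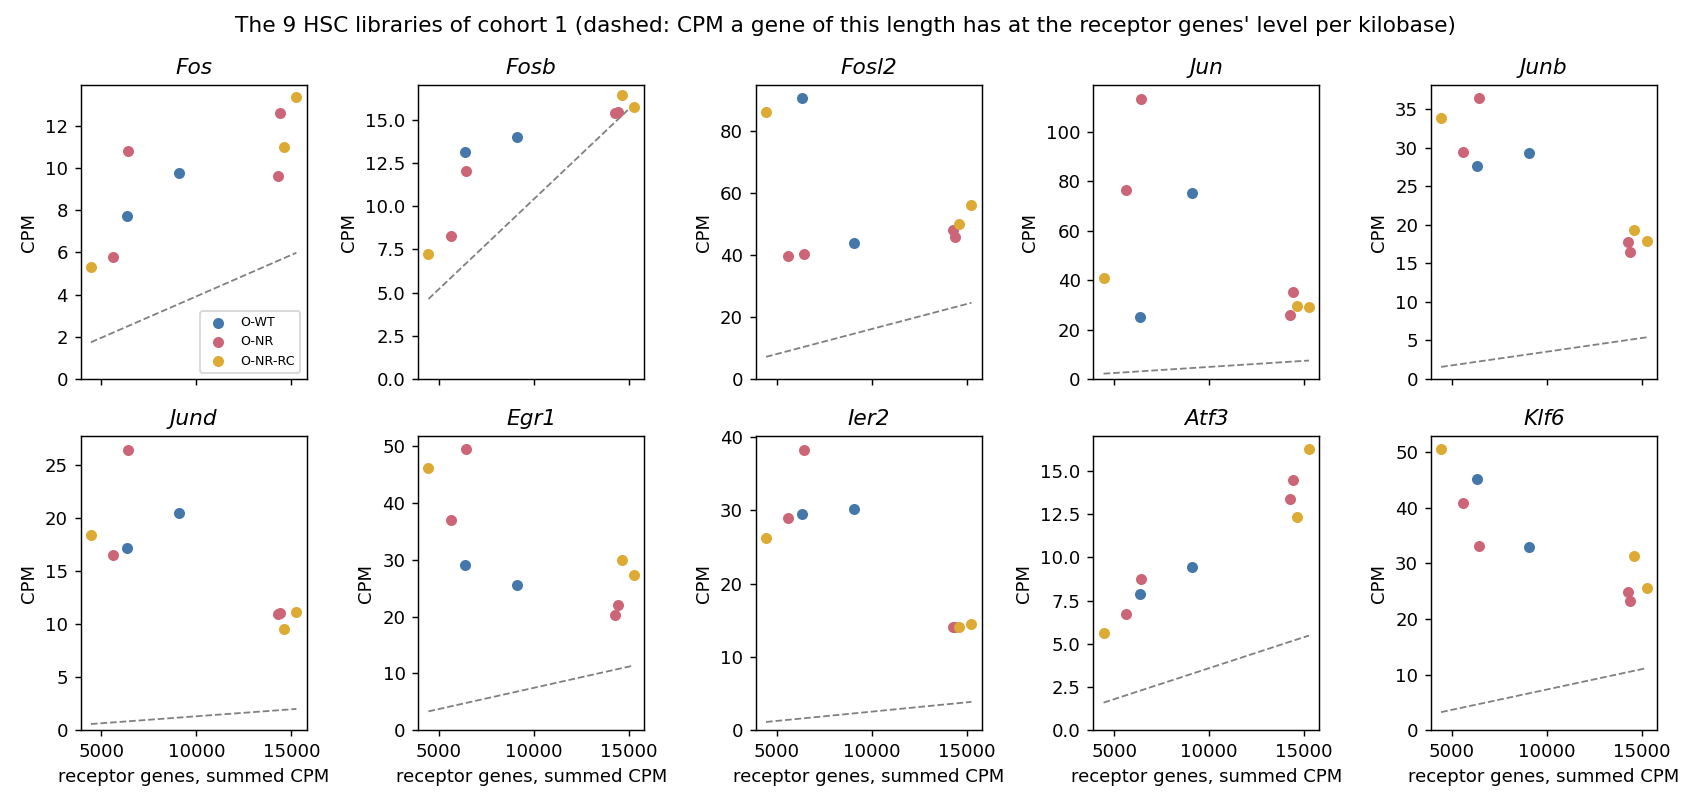
CPM of the members in the 9 HSC libraries of cohort 1 against the summed CPM of olfactory and vomeronasal receptor genes, by group. The 4 libraries above 10000 CPM of receptor genes hold the lowest Ier2, Junb and Jund values and the highest Fosb and Atf3 values in each group that has them.

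Without these 4 libraries, an alternative chosen after their levels were seen, cohort 1 holds 1 library after withdrawal and 2 each of the O-NR and O-WT groups, and 3 members passed in each comparison. Of 25597 genes 1.92% passed for O-NR against O-WT, 3.86% for O-NR-RC against O-NR and 10.6% for O-NR-RC against O-WT, far more than with all libraries. Fosl2 was at -0.64 (unadjusted p = 0.0077, adjusted p = 0.485) in O-NR against O-WT and at 1.29 (adjusted p = 0.023) in O-NR-RC against O-NR. Egr1 was at 0.78 (adjusted p = 0.0335) in O-NR and 1.07 (adjusted p = 0.00759) in O-NR-RC against O-WT. Jun was at 1.07 (adjusted p = 0.154) and -1.02 (adjusted p = 0.222) in the first 2 comparisons, and the lone O-NR-RC library is assumed to vary like the rest. The direction of Jun and Egr1 with NR was not that of cohort 2 HSCs (-0.32 and 0.00). With all 9 libraries kept, some markers of other cells differed between O-NR-RC and O-NR HSCs as well. In that fit 0.036% of 33350 genes passed. Among them were 1 of 6 B and plasma cell markers tested (Ighm, 3.72) and 1 of 5 erythroid markers (Hbb-bs, 2.47). In each of these lists 2 markers were below 0. The B and plasma cell sum was 78.4, 67.6 and 229 CPM in O-NR-RC HSCs, against 67.3 CPM in O-NR replicate 1. The erythroid sums overlapped, at 49.3, 26.6 and 27.3 CPM in O-NR-RC against 15.4 to 28.3 CPM in O-NR HSCs. Of the mature neutrophil markers 4 of 6 passed, led by S100a9 (2.40). The neutrophil sum was 39.8, 94.2 and 123 CPM in O-NR-RC against 26.2 to 55.4 in O-NR HSCs. The part of these cells and of the receptor level in the members' values was not tested.

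The median spread of the members between libraries of a group was above that of all genes in HSCs and GMPs of cohort 2 and in O-NR CLPs, and below it in O-WT CLPs and in the 2 O-WT libraries of cohort 1. The median SD of log2 CPM over members and over all tested genes was 0.431 and 0.252 in O-WT HSCs, 0.369 and 0.230 in O-NR HSCs, 0.303 and 0.174 in O-WT GMPs and 0.394 and 0.147 in O-NR GMPs, and 0.319 and 0.374 in O-WT and 0.420 and 0.365 in O-NR CLPs. The ratios were 1.71, 1.60, 1.74, 2.68, 0.852 and 1.15. Jun in GMPs was the extreme, with an SD of 0.893 in O-WT and 1.08 in O-NR mice and a dispersion 12.7 times the trend for genes of its level. Its 4 high libraries (O-WT replicates 1 and 2 at 34.4 and 31.6 CPM, O-NR replicates 3 and 4 at 21.8 and 27.4 CPM) had mature neutrophil markers at 8.54, 6.04, 10.9 and 8.58 CPM and its 4 low libraries at 28.4, 19.1, 20.3 and 21.995 CPM. Receptor genes did not split them, at 858 to 1987 CPM in the high and 1279 to 2376 in the low libraries. No other marker list separated these libraries, so the neutrophil list is a pick among several lists. The part of neutrophil transcripts was not tested. In HSCs Fosl2 (4.11 times the trend), Egr1 (2.81) and Jun (2.24) had the highest dispersions relative to the trend among members, with a median of 1.79 over the 10 and 0.899 over all genes.

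**Figure D5:**
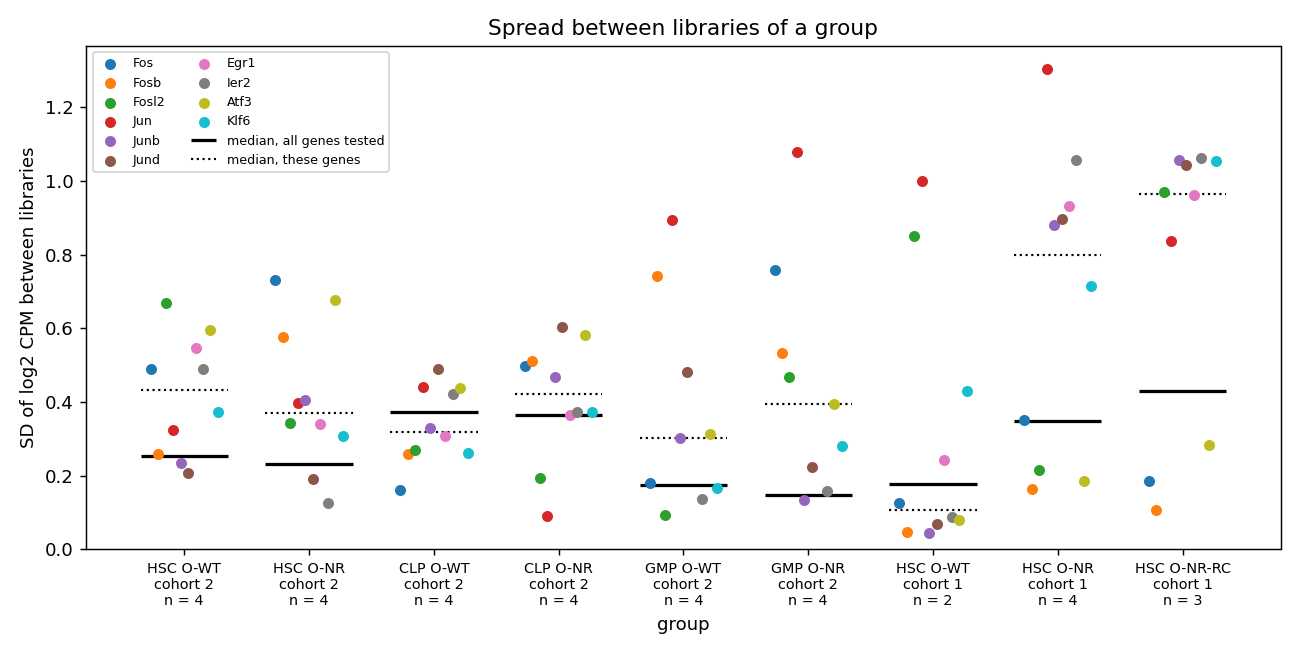
Median SD of log2 CPM between libraries of a group, for the members and for all tested genes, in the 9 groups, with the members' own SDs as points. The members' median exceeds that of all genes in HSCs, GMPs and O-NR CLPs of cohort 2 and in the treated and withdrawn groups of cohort 1, and is below it in O-WT CLPs and in the 2 O-WT libraries of cohort 1.

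In some groups the members tended to be high or low in the same libraries. In O-NR HSCs replicate 1 was highest for 7 members and replicate 4 lowest for 7, in O-WT HSCs replicate 2 was lowest for 6, and in O-NR GMPs replicate 4 was highest for 7 and replicate 1 lowest for 6. CLPs were more even. There a library was highest for at most 4 members in O-WT and 5 in O-NR mice, and lowest for at most 4 and 3. These ranks were not counted over all genes. GMP O-NR replicate 4 also had the most monocyte and macrophage marker counts (524 CPM against 194 to 231 in the other 3) and the fewest megakaryocyte marker counts (29.3 against 76.1 to 112 CPM), and their part was not tested. Among the 8 members over 3 CPM in at least 20 of 24 libraries of cohort 2, 27 of 28 pairs had a positive Pearson r of log2 CPM centred within groups (median 0.361), from -0.15 for Junb with Klf6 to 0.703 for Junb with Ier2. These points share library depth and scaling, and the r values are descriptions. Of 12559 other genes the 8 closest to the members' mean were Bmyc (r = 0.807), Itpr3 (0.762), Ctnna1 (0.734), Esyt1 (0.727), Baiap2 (0.722), Ppp1r18 (0.713), Tmem154 (0.686) and Map4k4 (0.684) over 24 libraries, with a median of 0.0187 over all genes. In the 9 libraries of cohort 1 the same 8 genes had r of 0.801 to 0.967, where the log2 receptor level had r of -0.963 with the members' mean, against -0.426 in cohort 2.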

How the data were processed

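The authors prepared libraries with a SMARTer stranded total RNA kit, sequenced 105-base paired reads on a HiSeq 2500, trimmed them, aligned them with STAR to mm10 and assigned them to Gencode M22 genes with featureCounts. They deposited whole-number counts per gene and library, with no normalization. Versions of STAR and featureCounts and the strand setting are not given in the sources used here. Groups came from sample titles. Members and lists were chosen with earlier results of these data known.

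Counts were analysed with edgeR 4.0.16 (limma 3.58.1, R 4.3.3): TMM factors, a filter that kept genes above 3 CPM in a number of libraries no smaller than the smallest group, quasi-likelihood tests, Benjamini-Hochberg adjustment over all genes. Each NR comparison was fitted on its own cell type, cell types on 12 libraries of 1 treatment, differences of NR effects on 24. Thresholds were an unadjusted p under 0.01 for NR and an adjusted p under 0.05 for cell types. The p cutoff for NR is one of the study's, whose fold cutoff of 1.5 was not applied: 33 of 135 genes called in HSCs (Fosl2 among them), 71 of 82 in CLPs and 14 of 133 in GMPs passed it. The script was tested on simulated data. Replicates are libraries, so p-values measure the spread between them, which may be technical. No 2 libraries of a group had identical counts (46 pairs). The smallest chi-square was 1.96 per gene, between O-NR replicates 1 and 2 of cohort 1. This value cannot tell whether 2 such libraries came from the same cells. All 10 members are named. From each list up to 3 called genes of smallest p per comparison could be named, and the 8 genes most like the members. Exonic lengths came from Gencode M21. Alternatives were other scalings, no filter or edgeR's own filter, DESeq2 1.42.0, replicate blocks and leaving out libraries. TMM from genes over 50 CPM, the receptor covariate and leaving out the 4 libraries were added after seeing the data. Depth was 4792380 to 23816042 reads over all libraries and 11755798 to 18213674 in GMPs, where Egr1 had 12 to 69 reads.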

Additional observations from a re-analysis of the deposited data

Results flagged for a closer look

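In groups of 4 libraries, 70 pairs of member and group were checked for 1 library far from the other 3, and 6 were found, where chance gives about 1 in 20 groups. Fosl2 in HSC O-NR replicate 1 of cohort 2 was at 51.3 CPM with the others at 31.3 to 32.5, and it is the library that overlaps the O-WT range. Klf6 in HSC O-NR replicate 3 was at 40.3 CPM with the others at 28.4 to 29.3. The other 4 were in CLPs: Fos at 4.12 CPM in O-NR replicate 3 (others 7.87 to 7.99), Fosl2 at 9.86 CPM in O-NR replicate 1 (12.3 to 12.6), Egr1 at 12.2 CPM in O-WT replicate 2 (15.4 to 15.8) and Klf6 at 24.1 CPM in O-NR replicate 4 (14.1 to 15.3).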

How the results depend on the processing

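The number of members called (main values in the report) kept within 1.5 times under every other setting run except these. For NR in HSCs of cohort 2 it was 0 with upper quartile scaling, library totals and DESeq2, and 2 (Fosl2 and Junb) with the replicate block and with the receptor covariate. In CLPs it was 1 (Jun) with library totals, TMM from genes over 50 CPM and the receptor covariate. In GMPs it was 3 without the CPM filter (Jun, Fosl2 and Jund) and 1 (Fosl2) with edgeR's own filter and with the replicate block. In cohort 1 the covariate gave 1, 1 and 2 members in the 3 comparisons, leaving out the 4 libraries gave 3, 3 and 3, and those 4 alone gave 1 (Egr1, 0.36) for withdrawal. Both cohorts gave 2 with the block and 2 with the covariate. GMPs against HSCs in O-WT mice gave 8 with upper quartile, totals and the covariate and 9 with TMM from genes over 50 CPM, and GMPs against CLPs in O-NR mice gave 3 with the covariate. Among called members signs turned for Junb in GMPs against CLPs of O-WT mice (-0.0799 with TMM from genes over 50 CPM, -0.125 with the covariate) and for Atf3 in O-NR mice (0.0323 with the covariate). Of the members not called, 9 turned sign under some setting in O-NR against O-WT and 9 in O-NR-RC against O-WT of cohort 1, 4 in O-NR-RC against O-NR, 4 in GMPs against CLPs of O-WT mice, 5 to 8 in the interactions between cell types, and 0 to 3 in the others. Causes were not tested. Replicate numbers did not pair O-WT with O-NR libraries throughout (2 of 4 HSC, 1 of 4 CLP and 1 of 4 GMP pairs deviated together). In cohort 1, 1 of 2 pairs of O-WT and O-NR did, 2 of 2 of O-WT and O-NR-RC and 1 of 3 of O-NR and O-NR-RC. So few pairs cannot tell whether the numbers mark a pairing. The numbers shared by the tables of the cell types did not pair libraries throughout. In O-WT mice 4 of 4 pairs of HSCs and CLPs deviated together, 0 of 4 of HSCs and GMPs and 0 of 4 of CLPs and GMPs. In O-NR mice 0 of 4, 1 of 4 and 2 of 4 did, in the same order. The bar for this was low, as r of 0.113 counted and r of 0.0919 did not. These few pairs cannot tell whether the shared numbers mark mice. With the shared number as a block in O-NR mice, Jun in GMPs against CLPs gave -0.73 (adjusted p = 0.0425) and Atf3 in CLPs against HSCs 0.93 (adjusted p = 0.0578).

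Leaving out 1 library in turn gave 0 to 3 members in HSCs, 0 to 1 in CLPs, 0 to 1 in GMPs, 0 in cohort 1 and for the interactions, and 0 to 1 in both cohorts. In O-WT mice it gave 6 to 7 for CLPs and 4 to 7 for GMPs against HSCs and 4 to 5 for GMPs against CLPs, and in O-NR mice 6 to 7, 6 and 4 to 8. The spread ratio ranged from 1.42 to 1.56 in O-WT and 1.22 to 1.93 in O-NR HSCs, 0.761 to 1.04 and 1.04 to 1.21 in CLPs, 1.49 to 1.98 and 1.87 to 2.86 in GMPs, and 2.17 to 2.43 in O-NR and 1.01 to 2.25 in O-NR-RC HSCs of cohort 1, where library totals gave 0.695. All-gene calls for NR moved from 135 to 283 in HSCs, 82 to 336 in CLPs and 133 to 366 in GMPs without the CPM filter, to 25 in GMPs in 1 fit over 24 libraries, and from 16, 12 and 26 to 491, 988 and 2709 in cohort 1 without the 4 libraries. Members near the receptor level (Fosb, Atf3, Fosl2 in CLPs, Egr1 in GMPs) are limited by it and by depth.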
